A study of Homo sapiens with 24 samples.

Results

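IL24 encodes interleukin-24, a secreted cytokine of the IL-10 family, and IL20RA, IL20RB and IL22RA1 encode the chains of its receptors. The cytokine binds a pair made of the IL20RB chain with either IL20RA or IL22RA1, and the pair signals through JAK kinases to STAT3. IL-24 is best known from activated immune cells, skin and melanoma, and its forced expression has been studied as a way to kill tumour cells, glioma cells included. The rule took the rows of these 4 genes, of which 3 had a row in all 6 expression tables, out of 34496 genes with a row in any table and 17794 with a row in all 6. IL20RA (ENSG00000016402, chromosome 6 from 136999971 to 137044965 of GRCh38.p14) had no row in the tables used here, and its RNA was not analysed here. The set was chosen because IL24 stood out for a rise shared by all lines after the drug STM2457, so every value of the 4 genes in that comparison is given as a description, with no test.

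Polyadenylated RNA of human glioma cell lines was sequenced in 24 libraries, 8 groups of 3 replicates. STM2457 inhibits METTL3, the enzyme that writes N6-methyladenosine (m6A) on mRNA. The groups were 4 lines given 50 µM STM2457 for 96 h, and the same lines given an equal volume of its solvent DMSO. U87-R and LN229-R are resistant to temozolomide, the alkylating drug of glioma therapy, and derive from the established glioblastoma lines U87 MG and LN229. Medium of the resistant lines held 50 µM temozolomide and that of the parental lines did not, so resistance and the drug in the medium cannot be told apart. Libraries of the U87 family came from EMEM cultures (10% serum) and a stranded TruSeq kit and those of the LN229 family from DMEM cultures (5% serum) and a Watchmaker kit, so kit and medium go with the family. The labels do not say whether replicates were separate cultures or how the resistant lines were derived, and p-values measure the spread between these libraries only.

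Values are the authors' normalized counts, made separately in each of the 6 tables of 6 libraries, with library totals of 21232924 to 25349361 for U87 cells and 24101385 to 28716587 for LN229 cells. Of 10 glioma and astrocyte markers, VIM, CD44, NES, TNC and OLIG2 averaged at least 10 normalized counts in every group, AQP4 did so in none, and SOX2 and S100B did so in the LN229 family only. For LN229 cells the control libraries carry conflicting names. All 6 DMSO columns of the table that sets LN229-R against LN229 lay nearest to the library of the same number that carries the other line's name in the STM2457 tables, at a distance of 0.0568 to 0.0615 (the SD over genes of their log2 ratio), against 0.3 to 0.363 for the like-named library. In the U87 family all 6 columns matched by name. By the same measure 4 of the 6 STM2457 libraries labelled LN229 or LN229-R lay nearest to a control of their own table, and LN229-R replicates 1 and 3 lay marginally nearer to the controls labelled LN229 (0.629 against 0.638 for replicate 1, and 0.633 against 0.64 for replicate 3). Of 16 genes called in the resistance table with a mean of at least 100 and a log2 difference of at least 3 in size, 12 in each LN229-R STM2457 library and 13 to 15 in each LN229 STM2457 library lay nearer to the controls of their own table. LN229 and LN229-R therefore stand below for the libraries so labelled.

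IL24 (ENSG00000162892) lies on the plus strand of chromosome 1 from 206897443 to 206904139, next to its relatives IL20, IL19 and IL10. IL22RA1 (ENSG00000142677) lies on the minus strand of chromosome 1 from 24119771 to 24143140, and IL20RB (ENSG00000174564) on the plus strand of chromosome 3 from 136957983 to 137011085, where it overlaps the antisense gene IL20RB-AS1. Whether counting used the strand is not given in the sources used here, so reads of IL20RB and IL20RB-AS1 may not be told apart. Upstream sequences are shown for IL24 and IL22RA1, the members whose STM2457 and DMSO groups separated in at least 1 line. The 250 bases before the start are taken from RefSeq on GRCh38.p14, 5′ to 3′, for IL24 at chr1:206897193-206897442 (plus strand) and for IL22RA1 at chr1:24143141-24143390 (minus strand). Capitals mark TATATA in IL24, and in IL22RA1 first an AP-1 match (TGANTCA) and then a C/EBP match (TTGCNNAA, read on the other strand).
IL24: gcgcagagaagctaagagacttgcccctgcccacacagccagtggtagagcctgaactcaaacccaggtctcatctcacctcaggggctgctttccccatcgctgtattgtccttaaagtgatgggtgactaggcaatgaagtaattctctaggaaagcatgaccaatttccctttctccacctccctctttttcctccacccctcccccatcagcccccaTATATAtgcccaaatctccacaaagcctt
IL22RA1: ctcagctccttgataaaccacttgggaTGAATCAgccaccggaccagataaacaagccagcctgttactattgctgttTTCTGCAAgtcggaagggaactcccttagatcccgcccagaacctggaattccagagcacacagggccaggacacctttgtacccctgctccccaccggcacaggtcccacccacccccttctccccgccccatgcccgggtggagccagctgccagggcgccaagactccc
In IL24 the TATATA letters begin at -29 from the annotated start, and 3.73% of 35116 promoters of this length hold them. In IL22RA1 the AP-1 letters begin at -223 and the C/EBP letters at -172, found in 6.57% and 9.05% of promoters. Both strands were searched, also for the CRE letters TGACGTCA, the STAT letters TTCNNNGAA and the TATA letters TATAAA, which are held by 1.65%, 6.57% and 10.7% of promoters. Neither sequence held these, and the IL20RB window held none of the 6 motifs. A match describes letters in this window and is not evidence of a binding site.

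The enzyme that STM2457 inhibits methylates adenosine mostly within the letters GGACT and close relatives, so the windows around each GGACT of the 3 measured RNAs are shown, with those letters in capitals. They come from the GENCODE v29 transcripts on GRCh38, ENST00000294984.6 for IL24 (7 exons, 1701 bases, 618 of them coding), ENST00000329582.8 for IL20RB (2047 bases) and ENST00000270800.1 for IL22RA1 (2798 bases).
IL24 coding, chr1:206897856-206897876, plus strand: aagcctgtGGACTttagccag
IL24 coding, chr1:206901577-206901597, plus strand: tgaagtcaGGACTctgaagtc
IL20RB after the stop codon, chr3:137010687-137010707, plus strand: atgatcaaGGACTctacacac
IL22RA1 coding, chr1:24137285-24137305, minus strand: ggagagagGGACTgggtggca
IL22RA1 after the stop codon, chr1:24120597-24120617, minus strand: catgataaGGACTgcagcggg
IL22RA1 after the stop codon, chr1:24120240-24120260, minus strand: ggacggcaGGACTctagggag
IL24 thus held 2 GGACT, with 4 GGACA and 2 GGACC, IL20RB held 1, 5 and 1, and IL22RA1 held 3, 5 and 4. Per 1000 bases GGACT came to 1.18 in IL24, 0.489 in IL20RB and 1.07 in IL22RA1, against a median of 0.94 over 19652 genes, and 87.2% of those genes hold at least 1 GGACT. The 3 motifs together came to 4.7 in IL24, 3.42 in IL20RB and 4.29 in IL22RA1, against a median of 3.35. Methylation itself was not measured in the data used here.

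The comparison of STM2457 with DMSO within each line asks which RNAs differ when the m6A writer is inhibited. IL24 had higher values in all 3 STM2457 libraries than in all 3 DMSO libraries of each of the 4 lines. In U87 MG cells IL24 had 278.6, 860.6 and 874.2 normalized counts with STM2457, against 78.2, 136.7 and 89.1 with DMSO. In U87-R cells it had 258.1, 420.5 and 139.4 with STM2457, against 86.1, 91.2 and 27.7 with DMSO. The lowest treated library of U87 MG was replicate 1, and the lowest of U87-R was replicate 3, whose numbered control was also the lowest. In cells labelled LN229 IL24 had 42.9, 220.9 and 107.8 with STM2457, against 2.29, 1.4 and 0.900 with DMSO. In cells labelled LN229-R it had 23.4, 35.4 and 24.8 with STM2457, against 1.13, 2.33 and 4.27 with DMSO. The LN229 controls were thus close to 0 and the U87 controls were not. The share of all tested genes with no overlap between the groups and higher values with STM2457 was 18.3% in U87 MG, 18.4% in U87-R, 30.7% in LN229 and 27.5% in LN229-R, and in either direction it was 34.8%, 35.3%, 60.6% and 53.1%. Nothing is read from the members against these shares, since they were chosen on this contrast. In bulk RNA, more cells that make a transcript and more of it per cell cannot be told apart.

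**Figure D1:**
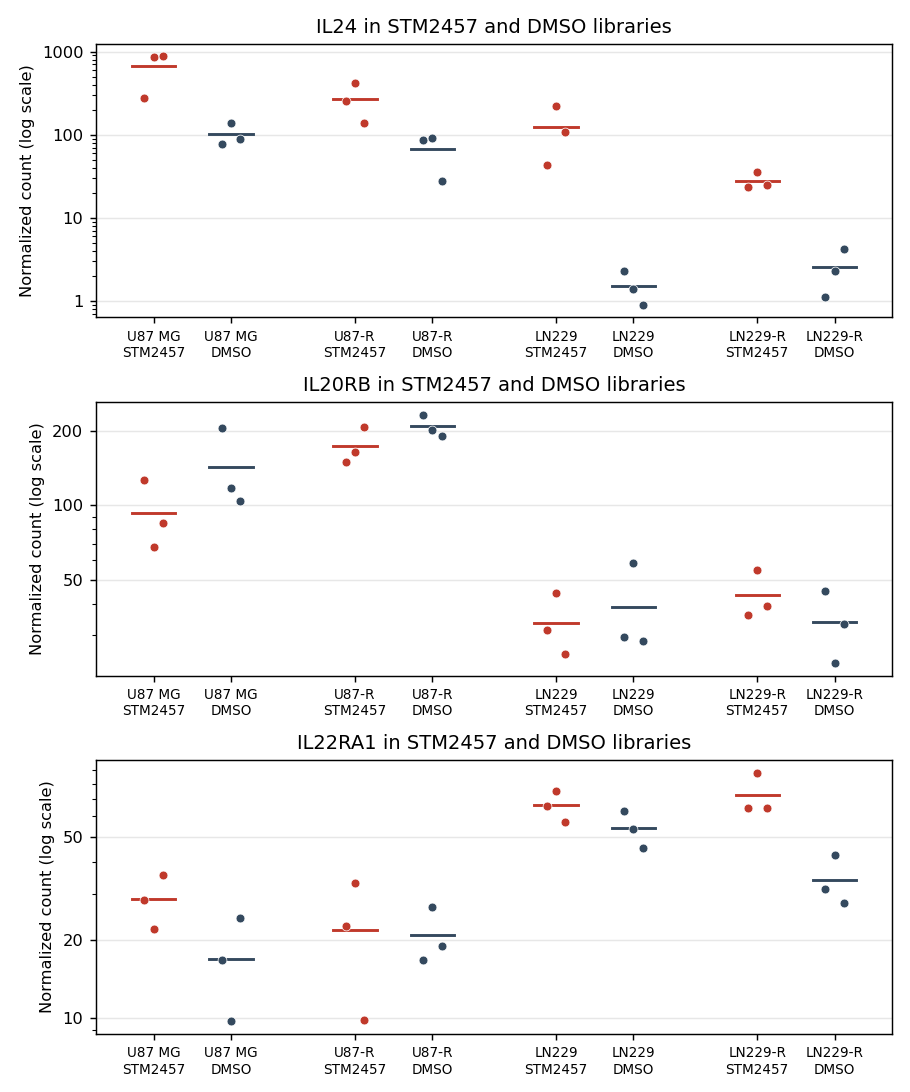
Normalized counts (log scale) of IL24, IL20RB and IL22RA1 in single libraries (points) with the group mean (line), STM2457 left of DMSO in each line, and each line normalized in its own table. IL24 separates the groups in all 4 lines, IL20RB in none, and IL22RA1 in LN229-R only as the controls are labelled. With the LN229 control names exchanged IL22RA1 separates the groups in LN229, and in LN229-R this depends on the table's scale.

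Group means of IL24 were 671.1 ± 340.0 with STM2457 and 101.3 ± 31.1 with DMSO in U87 MG (SD, n = 3 each), a ratio of 6.62, and 272.7 ± 141.1 against 68.4 ± 35.3 in U87-R, a ratio of 3.99. They were 123.9 ± 90.1 with STM2457 and 1.53 ± 0.704 with DMSO in LN229, a ratio of 81.0, and 27.9 ± 6.58 against 2.58 ± 1.58 in LN229-R, a ratio of 10.8. On the log2(value + 1) scale the differences were 2.58 (SE 0.60), 2.02 (SE 0.71), 5.37 (SE 0.71) and 3.09 (SE 0.42) in that order of lines. The LN229 differences rest on control values near the pseudocount, and with a pseudocount of 5 they were 4.04 in LN229 and 2.12 in LN229-R. Ratios of like-numbered libraries ran from 3.56 to 9.81 in U87 MG, from 3.00 to 5.03 in U87-R, from 18.8 to 157.8 in LN229 and from 5.82 to 20.6 in LN229-R, although the numbers were taken to pair samples only in U87-R and LN229-R. In LN229-R the highest ratio was that of replicate 1, which had the lowest control, and in the other lines it was that of replicate 2 or 3. Whether the size of the difference varies between lines was not tested, since the lines stand in tables normalized separately.

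Set side by side across tables, and with that limit, IL24 was highest in U87 MG with STM2457, then U87-R with STM2457, LN229 with STM2457, U87 MG with DMSO, U87-R with DMSO, LN229-R with STM2457, LN229-R with DMSO and LN229 with DMSO. Each neighbouring pair in this order overlapped in range, apart from LN229-R with STM2457 against LN229-R with DMSO. By the lowest of its 4 log2 differences IL24 stood at rank 5 of 13363 genes tested in all 4 lines, and by their mean of 3.26 at rank 8. The lowest difference was 2.57 for PELATON, 2.45 for the unnamed gene ENSG00000272077, 2.27 for ACP5 (a lysosomal acid phosphatase), 2.04 for TAS1R3 (a taste receptor chain), 2.02 for IL24 and 1.99 for RENBP (the renin-binding protein). IL24 was thus among the highest shared values and was not the highest one. It stood at rank 13 with no filter on low values.

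IL20RB encodes the chain that both IL-24 receptors need, and its groups overlapped in all 4 lines. In U87 MG cells IL20RB had 126.2, 67.8 and 84.4 normalized counts with STM2457, against 205.3, 117.5 and 103.8 with DMSO, with a log2 difference of -0.59 that was -0.30 without DMSO replicate 1 and -0.39 without STM2457 replicate 2. In U87-R cells it had 149.5, 163.9 and 206.8 with STM2457, against 232.7, 201.4 and 191.1 with DMSO (-0.27). In cells labelled LN229 it had 31.2, 44.0 and 25.1 with STM2457, against 29.3, 58.3 and 28.2 with DMSO (-0.16). In cells labelled LN229-R it had 35.9, 54.7 and 39.0 with STM2457, against 45.2, 23.0 and 33.0 with DMSO (0.38). The difference was below 0 in 3 lines and above 0 in LN229-R, and when 1 library was left out it ran from -0.84 to -0.30 in U87 MG, from -0.41 to -0.17 in U87-R, from -0.37 to 0.17 in LN229 and from 0.14 to 0.61 in LN229-R.

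IL22RA1 encodes the chain that also serves IL-20 and, with IL10RB, IL-22. In cells labelled LN229-R IL22RA1 had 64.2, 88.1 and 64.5 normalized counts with STM2457, against 31.3, 42.5 and 27.7 with DMSO, a ratio of means of 2.13 (log2 difference 1.08). As labelled, this was the only line in which its groups did not overlap, and it rests on control names that conflict. Against the controls of the other table, normalized separately, the STM2457 values in LN229 lay above (56.9 to 75 against 27.7 to 42.5). Those in LN229-R (64.2 to 88.1) lay just above 45.3 to 62.8. The same control libraries had 51.1 to 71.1 in the resistance table, a range that overlaps them. Whether the LN229-R groups separate with the names exchanged thus depends on the table's scale and cannot be told. In cells labelled LN229 it had 65.7, 75 and 56.9 with STM2457, against 62.8, 53.3 and 45.3 with DMSO (0.29, or 0.18 to 0.41 without 1 library). In U87 MG cells it had 28.5, 21.9 and 35.5 with STM2457, against 16.7, 9.70 and 24.3 with DMSO (0.79), and the difference was 0.46 without DMSO replicate 2 and otherwise between 0.62 and 1.08 without 1 library. In U87-R cells it had 22.6, 33.1 and 9.82 with STM2457, against 16.8, 26.8 and 18.9 with DMSO (-0.06), and STM2457 replicate 3 alone lay below all controls. Without 1 library the U87-R difference ran from -0.42 to 0.41, so it had no stable sign.

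The comparison of resistant with parental cells in DMSO was not used to choose the genes and was tested with limma across all genes (adjusted p under 0.05, Benjamini-Hochberg). None of the members tested passed, 3 in the U87 family and 2 in the LN229 family, where 4.27% of 16306 and 9.25% of 17136 genes did. At an unadjusted p under 0.05 there was 1 in each family, IL20RB in U87-R against U87 MG and IL22RA1 in LN229-R against LN229. Over all genes 2771 of 16306 in the U87 family and 4204 of 17136 in the LN229 family had such a p. The same members were those whose groups did not overlap, as for 23.3% of genes in the U87 family and 30.9% in the LN229 family. IL24 had 83.5, 88.9 and 26.8 normalized counts in U87-R, against 72.2, 125.9 and 81.7 in U87 MG, with a log2 difference of -0.62 (SE 0.45, adjusted p = 0.565). The groups overlapped, and U87-R replicate 3 was the lowest library. Without it the difference was -0.071, and without any other 1 library it lay between -0.92 and -0.39. IL24 had 2.38, 1.45 and 0.936 in the libraries labelled LN229-R, against 1.13, 2.31 and 4.24 in those labelled LN229, all too low for the test. Both groups lay under 5 normalized counts and overlapped.

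IL20RB had 236.2, 205.5 and 193.3 normalized counts in U87-R, against 184.1, 105.1 and 92.5 in U87 MG. All 3 U87-R libraries were above all 3 U87 MG libraries, as for 12.6% of tested genes with higher values, with a log2 difference of 0.79 (SE 0.26, adjusted p = 0.156). Without U87 MG replicate 1, the highest parental library, the difference was 1.09 and passed the threshold (adjusted p = 0.027). Without any other 1 library it did not pass (adjusted p from 0.227 to 0.411). In the LN229 family IL20RB had 31.1, 61.7 and 29.9 in the libraries labelled LN229-R, against 44.3, 22.4 and 32.2 in those labelled LN229 (log2 difference 0.27, SE 0.37, adjusted p = 0.705). Only LN229-R replicate 2 stood above the parental range, and without it the difference was -0.057 (adjusted p = 0.950).

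IL22RA1 had 71.1, 60.1 and 51.1 normalized counts in the libraries labelled LN229-R, against 31.8, 42.9 and 28.1 in those labelled LN229. The groups did not overlap, as for 16.3% of tested genes with higher values, and the log2 difference of 0.82 (SE 0.25) had an adjusted p of 0.0871. Without LN229 replicate 2, the highest parental library, it was 0.99 and passed (adjusted p = 0.029). Without any other 1 library it did not pass (adjusted p from 0.159 to 0.256). With the names exchanged the difference was -0.82. The same libraries stand in the STM2457 tables under the opposite names, where DMSO values were 31.3 to 42.5 for LN229-R and 45.3 to 62.8 for LN229, so which line had more IL22RA1 RNA cannot be told from these tables. In the U87 family IL22RA1 had 16.9, 27.2 and 19.0 in U87-R, against 15.4, 8.89 and 22.2 in U87 MG, with overlap (log2 difference 0.47, SE 0.46, adjusted p = 0.675). That difference was 0.15 without U87 MG replicate 2, 0.28 without U87-R replicate 2 and 0.76 without U87 MG replicate 3.

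**Figure D2:**
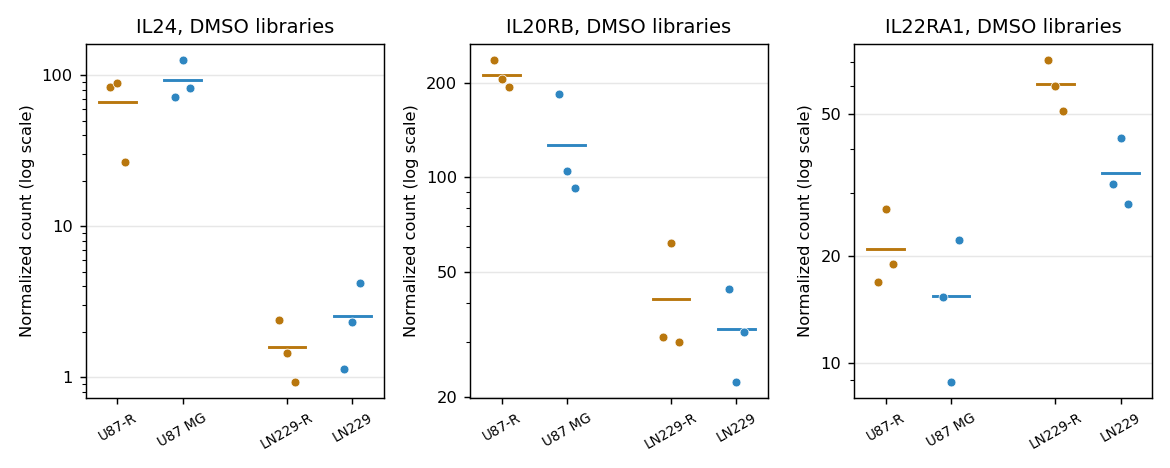
Normalized counts (log scale) of IL24, IL20RB and IL22RA1 in DMSO libraries (points) with the group mean (line), resistant left of parental. IL20RB of U87-R and IL22RA1 of LN229-R lay above all parental libraries of their tables, and neither passed the threshold. LN229 names are those of this table.

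The other genes around IL24 on chromosome 1 belong to its family (IL10, IL19 and IL20, on one side) or encode immunoglobulin receptors (FCMR, PIGR and FCAMR, on the other). Only FCMR, which encodes a receptor for IgM, passed the filter of a mean of 10. Over all genes tested, limma calls with STM2457 covered 13.6% in U87 MG, 14.7% in U87-R, 49.7% in LN229 and 38.6% in LN229-R. FCMR rose to 134.8 ± 33.8 normalized counts with STM2457 in LN229, against 21.1 ± 11.6 with DMSO (log2 difference 2.73, SE 0.40, limma adjusted p = 0.00092). In LN229-R it rose to 149.3 ± 8.56 with STM2457, against 4.46 ± 2.10 with DMSO (4.87, SE 0.38, adjusted p = 0.00011), and it passed the filter there only through its STM2457 libraries. In the U87 family FCMR did not pass, with 112.9 ± 6.05 against 80.3 ± 17.7 in U87 MG (0.51, adjusted p = 0.179) and 73.1 ± 17.0 against 59.4 ± 13.5 in U87-R (0.29, adjusted p = 0.53). IL19 averaged at most 6.31 normalized counts and IL20 at most 1.48 in the groups where they had a row, and IL10 and PIGR had no row in any of the 6 tables. In DMSO the libraries labelled LN229-R had 26.2 ± 14.4 normalized counts of FCMR, against 4.42 ± 2.08 in those labelled LN229 (2.27, adjusted p = 0.036), a call that ended without replicate 1 or 3 of either group and whose direction turns round with the names exchanged. There too FCMR passed the filter only through the group in which it is high, so this call depends on that group. Of the 3 protein-coding neighbours on each side of IL20RB, 4 were tested per table: the adaptor gene NCK1 rose in U87 MG (0.74), LN229 (1.25) and LN229-R (1.26), and the cohesin gene STAG1 fell in LN229 (-0.55) and LN229-R (-0.58). Of those of IL22RA1, 4 were tested per table, and PNRC2 (-0.44 and -0.49) and the splicing factor gene SRSF10 (-0.59 and -0.58) fell in LN229 and LN229-R, as did STPG1 in LN229-R (-0.49). The 2 of 4 called in LN229 around IL20RB and around IL22RA1 are close to the share over all genes there. In LN229-R the calls of STAG1, SRSF10 and STPG1 each ended without DMSO replicate 1, DMSO replicate 3 or STM2457 replicate 3 (adjusted p up to 0.131), that of STAG1 also without STM2457 replicate 1 or 2, that of SRSF10 without STM2457 replicate 2 and that of STPG1 without STM2457 replicate 1.

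**Figure D3:**
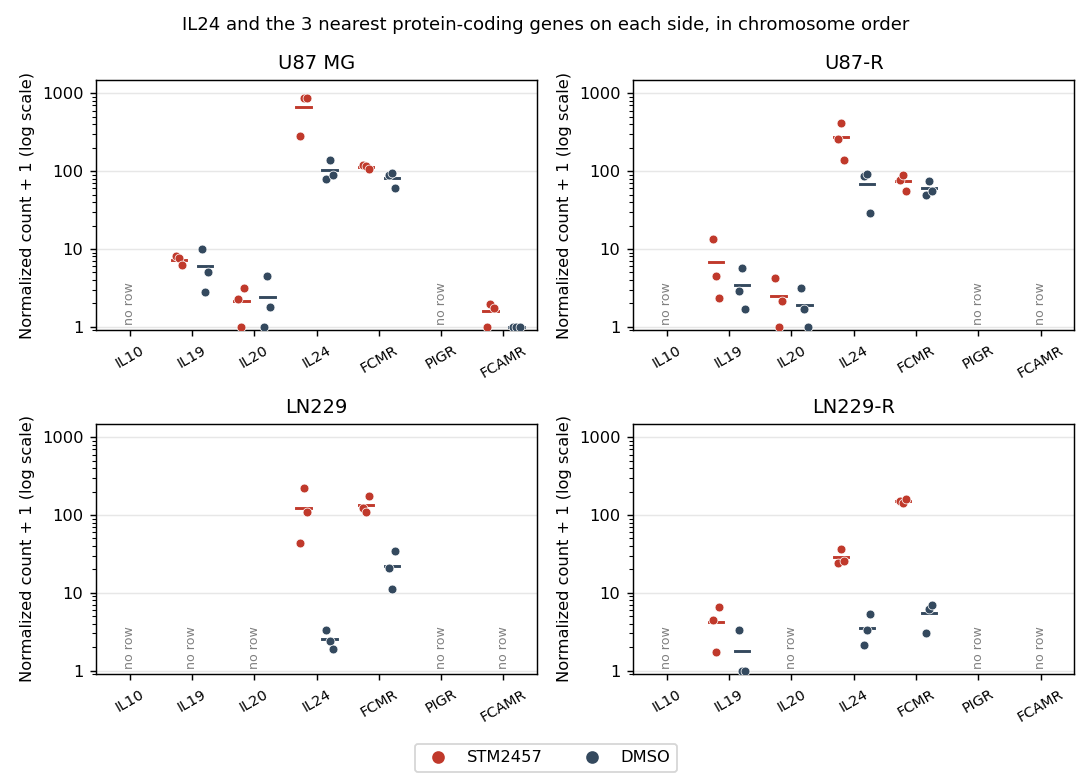
Normalized counts plus 1 (log scale) of IL24 and its 3 nearest protein-coding genes on each side, STM2457 left of DMSO, with points for libraries and lines for means. IL24 is higher with STM2457 than with DMSO in all 4 lines, FCMR clearly so in the LN229 family, and IL19 and IL20 stay near the bottom of the scale.

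Genes of the wider pathway were taken from lists and counted as higher or lower where limma gave an adjusted p under 0.05. That fit did not pair like-numbered libraries, and results with the replicate number as a block are named as such. The background shares with STM2457 were 7.86% higher and 5.72% lower in U87 MG, 8.46% and 6.2% in U87-R, 26.2% and 23.6% in LN229, and 21.5% and 17.1% in LN229-R, or in either direction 13.6%, 14.7%, 49.7% and 38.6% in that order. The median log2 difference over all tested genes was between -0.02 and 0 in all 4. The other cytokines of the IL-10 family, 8 listed, had no member with a mean of 10 in any table, and none of them was tested. The lists are described by counts and medians and were not tested as sets. Calls with STM2457 in LN229 and LN229-R, here and for the neighbours above, rest on control names that conflict. These fits were not repeated with the controls exchanged.

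Among 8 other chains of the class II cytokine receptor family, to which the IL-24 receptor chains belong, IL10RA and IL22RA2 had no row in any table. With STM2457, 1 rose and 1 fell of 5 tested in U87 MG, 0 and 2 of 5 in U87-R, 2 and 3 of 6 in LN229, and 2 and 3 of 6 in LN229-R, with medians of -0.06, -0.36, 0.03 and -0.29. IL10RB, the partner of IL22RA1 in the IL-22 receptor, rose to 1650 ± 37.5 normalized counts with STM2457 in LN229, against 1052 ± 35.5 with DMSO (log2 difference 0.65, adjusted p = 0.00028). In LN229-R it rose to 2062 ± 247.3, against 1147 ± 4.30 (0.84, adjusted p = 0.0011). The interferon gamma receptor chains moved apart, with IFNGR1 higher in U87 MG (0.83), LN229 (0.90) and LN229-R (0.77) and IFNGR2 lower in U87 MG (-0.58), in U87-R (-0.53), in LN229 (-1.06) and in LN229-R (-1.23). The type I interferon receptor chain IFNAR2 fell in LN229 (-1.0) and LN229-R (-0.94), and IFNAR1 fell in U87-R (-0.51), LN229 (-0.44) and LN229-R (-0.56). In LN229 and LN229-R leaving out any 1 library kept all these counts. The IFNGR2 call ended in U87 MG without DMSO replicate 2 (adjusted p = 0.0515), and the U87-R calls ended without DMSO replicate 1, DMSO replicate 2 or STM2457 replicate 2, and that of IFNGR2 also without STM2457 replicate 3 (adjusted p up to 0.102). With the replicate number as a block, 1 rose and 2 fell in U87-R, and with equal library totals 1 fell.

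**Figure D4:**
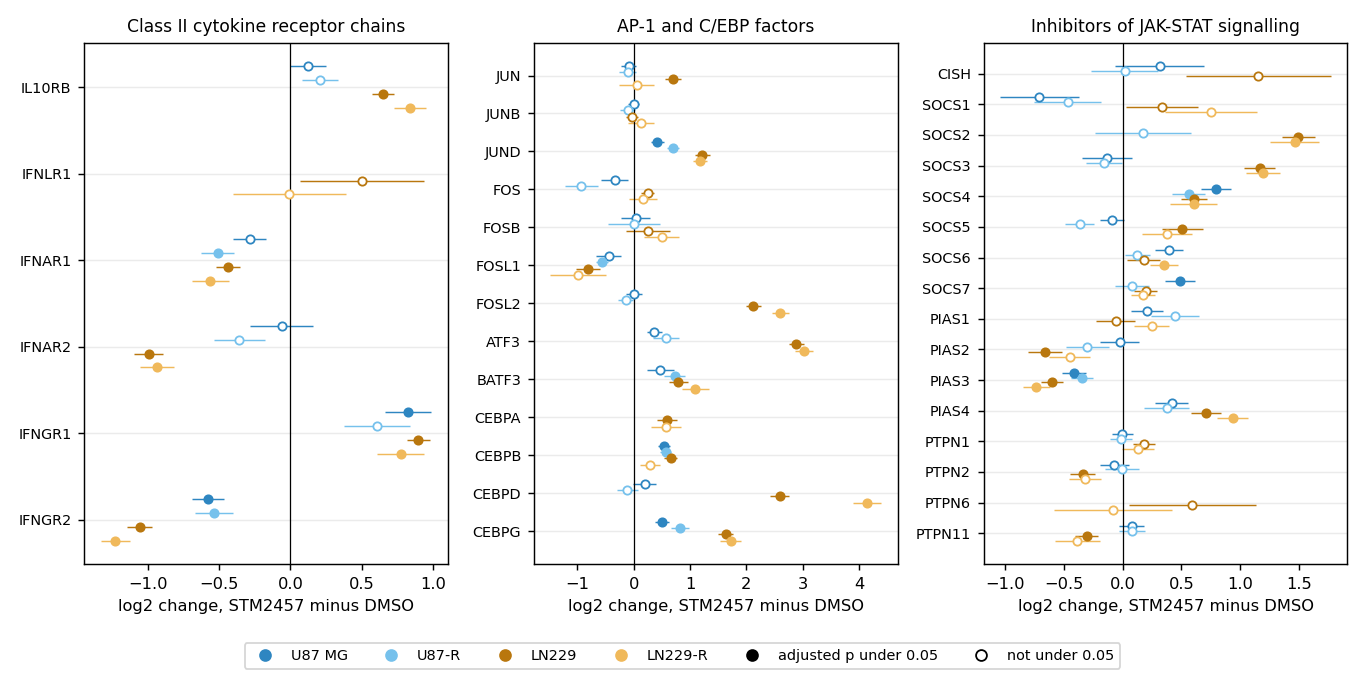
Log2 differences, STM2457 minus DMSO, with SE bars, for class II receptor chains, AP-1 and C/EBP factors and inhibitors of JAK-STAT signalling, by line. Filled points have an adjusted p under 0.05: FOSL2, ATF3, CEBPD, SOCS2 and SOCS3 are filled in LN229 and LN229-R only, and whether the lines differ was not tested.

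STAT3, a transducer that the IL-24 receptors are known to activate, did not pass in any line in the main, unpaired fit. STAT3 had log2 differences of -0.41 in U87 MG, -0.39 in U87-R, 0.27 in LN229 and 0.31 in LN229-R, with adjusted p between 0.0585 and 0.105. Of the JAK and STAT genes, 0 of 11 passed in U87 MG and 0 of 11 in U87-R by limma, with 4 at an unadjusted p under 0.05 in each, and 2 rose and 1 fell in U87-R with the replicate block. Over all genes 4856 of 16407 in U87 MG and 4890 of 16185 in U87-R had an unadjusted p under 0.05. With the block 4796 genes were called in U87-R. Also in U87-R 1 rose with equal library totals and 1 fell with equal upper quartiles. In U87 MG 1 fell without DMSO replicate 2 or with equal upper quartiles, and 2 fell with the block. In LN229 5 of 10 rose, and in LN229-R 5 of 10, with none lower and medians of 0.25 and 0.51. They included STAT6, a transducer of IL-4 signals, at 153.6 ± 24.9 with STM2457 against 53.4 ± 4.37 with DMSO in LN229 (1.50, adjusted p = 0.00046), and STAT2, a partner of interferon signalling (0.91 and 1.07). STAT6 rose by 1.48 in LN229-R, and the DMSO groups of the resistance comparison themselves differed by 1.48. Its rise in LN229-R thus depends on which controls are used. The LN229 count fell to 3 without DMSO replicate 1 or 2 or STM2457 replicate 1, to 2 without DMSO replicate 3, and to 3 under either other scaling, and JAK1 (0.22) and STAT5A (0.59) were among those lost. In LN229-R it fell to 3 without DMSO replicate 3, STM2457 replicate 1 or STM2457 replicate 3, where JAK2 (0.50) was lost.

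Inhibitors of JAK-STAT signalling showed 2 higher and 1 lower of 14 tested in U87 MG, 1 and 1 of 15 in U87-R, 5 and 4 of 16 in LN229, and 5 and 1 of 15 in LN229-R, with medians of 0.04, 0.02, 0.26 and 0.25. SOCS3, which STAT3 induces and which shuts its receptors off, rose to 4897 ± 801.8 normalized counts with STM2457 in LN229, against 2170 ± 222.4 with DMSO (1.17, adjusted p = 0.00024). In LN229-R it rose to 3456 ± 358.0, against 1522 ± 235.5 (1.19, adjusted p = 0.00068). SOCS3 did not pass in U87 MG (-0.13) or U87-R (-0.16). SOCS2, of the same family, also rose in LN229 (1.49) and LN229-R (1.46). SOCS4 rose in U87 MG (0.79), in U87-R (0.56), in LN229 (0.61) and in LN229-R (0.60), and PIAS3, a protein that binds STAT3, fell in U87 MG (-0.42), in U87-R (-0.34), in LN229 (-0.60) and in LN229-R (-0.73). In U87-R the PIAS3 call ended without any 1 of the 6 libraries (adjusted p up to 0.148) and that of SOCS4 without any 1 but STM2457 replicate 3 (up to 0.122), while 2 rose and 2 fell with the replicate block and none fell with equal library totals. In U87 MG the calls of PIAS3 (up to 0.0982) and SOCS7 (0.49, up to 0.133) ended without DMSO replicate 2 or any STM2457 library, and without DMSO replicate 3 for PIAS3 and DMSO replicate 1 for SOCS7. In LN229 the lower count was 2 without DMSO replicate 1 or 3. In LN229-R the higher count was 3 without DMSO replicate 2 or 3 or STM2457 replicate 1 or 3, where SOCS4 was lost, and the lower count was 3 without DMSO replicate 2 and with the replicate block, and 2 with equal upper quartiles.

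Of 13 STAT3 target genes tested per line, 1 rose and 2 fell in U87 MG, 1 and 1 in U87-R, 7 and 2 in LN229, and 7 and 0 in LN229-R, with medians of -0.03, -0.11, 0.82 and 0.98. BCL2L1, which encodes the survival protein BCL-XL, rose in all 4 lines, by 0.64 in U87 MG, 0.92 in U87-R, 1.23 in LN229 and 1.4 in LN229-R, and kept its call without any 1 library. The angiogenic factor gene VEGFA fell in U87-R (-0.85) and in U87 MG (-0.52), where the call ended without any 1 library but DMSO replicate 3, and it rose in LN229 (0.96). OSMR, a receptor chain for oncostatin M, fell in U87 MG (-0.36), where the call ended without any 1 library, and rose in LN229 (0.83) and LN229-R (1.26). The lower count in U87-R was 2 without DMSO replicate 3 and with equal upper quartiles, and 3 with the replicate block. In U87 MG 2 rose without STM2457 replicate 1, and 1 fell with equal library totals. In LN229 1 fell without DMSO replicate 1 or 3, and in LN229-R 2 fell without STM2457 replicate 1 or with the block and 1 without STM2457 replicate 2 or with equal upper quartiles.

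The AP-1 and C/EBP factors, families known to act at cytokine genes, had 3 higher and 0 lower of 12 tested in U87 MG, 4 and 1 of 12 in U87-R, 9 and 1 of 13 in LN229, and 6 and 0 of 13 in LN229-R, with medians of 0.12, -0.05, 0.70 and 0.58. ATF3, a stress-induced factor, rose to 1901 ± 184.0 normalized counts with STM2457 in LN229, against 257.2 ± 36.2 with DMSO (2.89, adjusted p = 6.0e-06). In LN229-R it rose to 2190 ± 237.0, against 271.1 ± 51.6 (3.02, adjusted p = 3.4e-05). ATF3 had differences of 0.37 in U87 MG and 0.57 in U87-R and did not pass there. CEBPD rose to 7138 ± 1449 in LN229, against 1176 ± 202.4 (2.60), and to 8673 ± 2364 in LN229-R, against 495.2 ± 162.1 (4.14). FOSL2 rose in both (2.12 and 2.60). CEBPG and JUND were higher in all 4 lines, by 0.50 and 0.42 in U87 MG, 0.82 and 0.70 in U87-R, 1.64 and 1.22 in LN229, and 1.73 and 1.18 in LN229-R. The U87 MG count fell to 1 without any DMSO library or STM2457 replicate 1, to 0 without STM2457 replicate 2, and to 1 with equal upper quartiles. The U87-R count of higher genes fell to 2 without STM2457 replicate 2, where CEBPG and BATF3 (0.73) lost their calls, and FOSL1 (-0.56), the 1 lower gene, lost its call there too, while 2 genes fell with the replicate block. In LN229-R 1 fell with the block.

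Genes reported downstream of IL-24 in tumour cells, a list of stress and death genes, showed 1 higher and 0 lower of 15 tested in U87 MG, 3 and 1 of 15 in U87-R, 7 and 2 of 15 in LN229, and 5 and 2 of 15 in LN229-R, with medians of 0.14, 0.13, 0.36 and 0.36. PPP1R15A, which restores translation after stress, rose in U87-R (0.53), LN229 (1.52) and LN229-R (1.76). GADD45B, a stress-response gene, rose in LN229 (1.70) and LN229-R (1.79), while GADD45A fell there (-1.15 and -1.26). BAX, a trigger of mitochondrial death, rose in U87-R (0.51), LN229 (0.63) and LN229-R (0.53), beside the survival gene BCL2L1. DDIT3, which the endoplasmic reticulum stress pathway induces, rose in LN229 (0.92, adjusted p = 0.028), a call that ended without any 1 DMSO library, and did not pass in LN229-R, where its STM2457 libraries spread to 1520 ± 1536 against 495.5 ± 106.7 with DMSO. HSPA5, the chaperone of that pathway, did not pass in any line, with differences from -0.25 to 0.03. In U87-R BAX lost its call without DMSO replicate 1, DMSO replicate 2 or STM2457 replicate 2, and PPP1R15A without DMSO replicate 2, STM2457 replicate 1 or STM2457 replicate 2. The U87-R count of higher genes was 1 without DMSO replicate 2 or STM2457 replicate 2 and 5 with the replicate block, and its lower call, EIF2AK2 (-0.44), ended without any 1 library. The lower count was 1 in LN229 without DMSO replicate 1 or STM2457 replicate 3, and 1 in LN229-R without any DMSO library or STM2457 replicate 3.

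Cytokines of the IL-6 family and their receptors, which also signal through STAT3, showed 0 higher and 3 lower of 10 tested in U87 MG, 0 and 2 of 10 in U87-R, 5 and 2 of 9 in LN229, and 4 and 2 of 10 in LN229-R, with medians of -0.35, -0.43, 0.50 and 0.64. IL11, a secreted member, fell to 277.3 ± 94.6 normalized counts with STM2457 in U87-R, against 1155 ± 212.2 with DMSO (-2.09, adjusted p = 0.0013). In U87 MG it fell to 292.2 ± 102.4, against 1226 ± 815.5 (-1.89, adjusted p = 0.031), and this call ended without DMSO replicate 2 or 3 or STM2457 replicate 1 or 2. The IL-6 receptor gene IL6R rose to 1495 ± 119.4 in LN229, against 252.4 ± 59.4 (2.58), and to 1153 ± 211.6 in LN229-R, against 158.7 ± 22.4 (2.85). IL6 itself was at 25.2 ± 4.08 with STM2457 in LN229, against 3.55 ± 1.33 with DMSO (2.55). IL6 passed the filter of a mean of 10 only through its STM2457 libraries. Its call, 1 of the 5 higher, thus depends on the group in which it is high. Its shared receptor chain IL6ST rose in LN229 (0.82) and LN229-R (0.98). In U87 MG the lower count was 0 without DMSO replicate 2, DMSO replicate 3 or STM2457 replicate 2, and 1 without STM2457 replicate 1 or 3. In U87-R it was 1 without DMSO replicate 1, DMSO replicate 2 or STM2457 replicate 2, 4 with equal upper quartiles, 1 with equal totals and 6 with the replicate block. In LN229-R it was 1 without DMSO replicate 1 or 3.

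In the resistance comparison the same lists held few calls in U87-R against U87 MG, where 3.13% of genes were higher and 1.15% lower. OSMR fell to 1767 ± 636.2 normalized counts in U87-R, against 4356 ± 301.1 in U87 MG (-1.37, limma adjusted p = 0.016), a call that ended without U87 MG replicate 2 or 3. FOS, an immediate early AP-1 factor, was higher (1.13, adjusted p = 0.048) and lost its call without any 1 library but U87-R replicate 1 and with equal library totals. No other gene of these 7 lists passed there, 1 class II chain rose without U87 MG replicate 3, 1 gene reported downstream rose without U87-R replicate 3, and 2 genes of the IL-6 family fell without U87 MG replicate 1. In the libraries labelled LN229-R against those labelled LN229, where 5.6% of genes were higher and 3.65% lower, the calls were 0 higher and 2 lower of 6 class II chains, 2 and 0 of 10 JAK and STAT genes, 1 and 0 of 15 inhibitors, 5 and 0 of 13 STAT3 targets, 1 and 0 of 13 AP-1 and C/EBP factors, 2 and 0 of 15 genes reported downstream, and 1 and 1 of 9 in the IL-6 family. LIF, a cytokine that keeps stem cells undifferentiated, was lower (-1.31, adjusted p = 0.00064), and OSMR (0.75) and CEBPD (1.47) were higher, and these 3 kept their calls without any 1 library. JAK3, a kinase of lymphoid cells, was higher (2.16) and lost its call without LN229-R replicate 2 or 3, and STAT6 (1.48) without any 1 LN229-R library. SOCS3 (0.70) lost its call without LN229-R replicate 1 or 2, and MYC (0.99) without LN229-R replicate 1 or 3. The counts changed when 1 library was left out: the STAT3 targets to 2 without LN229-R replicate 1, 3 without LN229-R replicate 2 or 3 and 9 without LN229 replicate 2, and the AP-1 and C/EBP factors to 5 without LN229 replicate 2. Calls over all genes moved the same way, from 1585 to 606, 683 and 534 without LN229-R replicate 1, 2 and 3. They were 3262 without LN229 replicate 2. The class II count fell to 0 without any 1 LN229-R library and to 1 without LN229 replicate 1 or 3, and the downstream count to 0 without any 1 LN229-R library or LN229 replicate 3 and to 1 without LN229 replicate 1. Without LN229 replicate 2, 2 inhibitors and 1 STAT3 target fell. With the replicate block 2 inhibitors and 3 AP-1 and C/EBP factors rose, 2 rose and 2 fell in the IL-6 family, and 3 class II chains and 1 STAT3 target fell. With equal library totals 1 class II chain fell and 2 of the IL-6 family rose, and with equal upper quartiles 1 gene reported downstream rose and 1 STAT3 target fell. Every one of these LN229 directions turns round with the names exchanged.

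Markers of cell types that make IL-24 were set beside the cytokine, and their part in its values was not tested. Of 8 immune markers, CD3E, NKG7 and AIF1 had no row in any table, and PTPRC averaged at most 2.30 normalized counts where it had one. The summed immune markers were 141.0 to 252.1 with STM2457 against 217.3 to 228.6 with DMSO in U87 MG, 105.0 to 224.7 against 120.1 to 133.5 in U87-R, 24.3 to 52.6 against 19.4 to 22.7 in LN229, and 16.4 to 37.9 against 21.1 to 24.9 in LN229-R. In U87 lines nearly all of it was CSF1R, and 0 of the 1 tested per line passed with STM2457 by limma, with 0 at an unadjusted p under 0.05. In LN229 the summed level was higher in all STM2457 libraries than in all DMSO libraries, as for 30.7% of single tested genes, and in the other lines the groups overlapped. The LN229 sum came from CD14, CSF1R and LYZ at low counts, and the 1 immune marker tested there was not called. Of 8 keratinocyte markers, KRT1, DSG3 and LOR had no row in any table, and 0 of 2 passed in U87 MG, 1 of 3 in U87-R (KRT14), 2 of 2 in LN229 and 3 of 3 in LN229-R, all lower. KRT14 in U87-R was not called without DMSO replicate 1, DMSO replicate 3 or STM2457 replicate 2, and 1 of 3 passed in LN229-R without DMSO replicate 1. In U87-R and LN229-R KRT14 averaged at least 10 with DMSO and not with STM2457. Its calls thus depend on the group in which it is high. Their summed level was 290.1 to 402.1 with STM2457 against 300.1 to 419.9 with DMSO in U87 MG, 233.7 to 384.3 against 298.7 to 306.1 in U87-R, 709.2 to 829.5 against 1022 to 1099 in LN229, and 712.0 to 738.6 against 1132 to 1395 in LN229-R. The summed keratinocyte markers were thus lower with STM2457 in the LN229 family, with no overlap between groups. Among single tested genes 60.6% in LN229 and 53.1% in LN229-R did not overlap in either direction. Only KRT10 and TP63 averaged at least 10 there with STM2457, so the sum rests on few genes. Of the glioma and astrocyte markers, 0 rose and 1 fell of 7 in U87 MG (NES, not called without STM2457 replicate 2, and 2 fell without DMSO replicate 3), 0 and 0 of 6 in U87-R, 1 and 6 of 9 in LN229, and 1 and 2 of 8 in LN229-R, where S100B and OLIG2 fell and CD44 rose in LN229 and LN229-R. With the replicate block 1 rose and 3 fell in U87-R and 4 fell in LN229-R, 1 rose in U87-R without STM2457 replicate 1 or with equal library totals, and 4 fell in LN229-R with equal upper quartiles. In the resistance comparison NES rose (1.15) and the immune marker CSF1R fell (-0.79) in U87-R against U87 MG, S100B and OLIG2 were lower in the libraries labelled LN229-R than in those labelled LN229, a direction that turns round with the names exchanged, and no other marker passed; each of these calls ended without 3 to 6 of the 6 libraries.

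The genes whose pattern was most like that of IL24 over the 6 libraries of each STM2457 table, by the mean Pearson r over the 4 tables, were CSTB (0.979), TRIM13 (0.971), HABP4 (0.970), EFL1 (0.966) and CHMP1B (0.961). These correlations share libraries, depth and the split between STM2457 and DMSO, so they describe genes that follow the same split. CSTB had log2 differences of 0.84 in U87 MG, 0.56 in U87-R, 0.84 in LN229 and 0.87 in LN229-R. For IL20RB the closest patterns were weaker, with SPRED3 (0.732), PPP3CB-AS1 (0.721), MAGIX (0.702), WARS1 (0.696) and S100A6 (0.691).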

How the data were processed

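Normalized counts (signal) were deposited by the authors in 6 tables of 6 libraries. Per the submitters' processing notes, Trimmomatic 0.39, STAR 2.7.11a, Salmon 1.4.0 and DESeq2 were used on GRCh38. Settings and the counting of strands are not given in the sources used here. Factors differ between genes, so whole reads were not recovered and count tests were not run. Within each table log2(value + 1) of genes with a mean of at least 10 was fitted with limma 3.58.1 (R 4.3.3) with a variance trend. Fold changes on this scale understate changes of low genes. The members and lists were chosen with earlier results of these data known. The steps were tested on simulated data.

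Named genes were the 4 members, genes ranked next to IL24 by shared rise, the 5 most like IL24 and IL20RB, 3 protein-coding neighbours on each side, and up to 4 called genes per list with the lowest adjusted p. STAT3, HSPA5, DDIT3, BATF3 and the values of named genes in other lines were chosen after their values were seen. Like-numbered libraries correlated above 0.1 in all 3 pairs in the LN229 resistance table (0.11 to 0.20), the U87-R STM2457 table (0.11 to 0.30) and the LN229-R STM2457 table (0.10 to 0.32), so the numbers were taken to pair samples there. The main fit did not use this pairing, so calls and p-values there are unpaired unless the replicate block is named. With the block, calls went from 2373 to 4796 in U87-R with STM2457 and from 1585 to 2600 for LN229-R against LN229. A gene that did not pass there may pass with the block. Other settings tried were a pseudocount of 0.5 or 5, the filter dropped or raised to 50, equal library totals or upper quartiles, no variance trend, an adjusted p under 0.01, the replicate number as a block, each library left out, and the LN229 names exchanged. The names were exchanged only in the fit of LN229-R against LN229. Plots used matplotlib 3.10.9 in Python 3.11.15.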

Additional observations from a re-analysis of the deposited data

How the results depend on the processing

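The number of genes with an adjusted p under 0.05 was 697 for U87-R against U87 MG and became 396 without the variance trend, 262 at 0.01, 1176 with the replicate block and 315 to 607 without 1 library. For LN229-R against LN229 it was 1585, and 951, 543, 2600 and 534 to 3262. For STM2457 it was 2228 in U87 MG, and 1301, 783, 4137 and 890 to 1803. In U87-R it was 2373, and 1372, 811, 4796 and 884 to 2217. In LN229 it was 8506 and became 5480 at 0.01, and in LN229-R 6591, and 3521 at 0.01 and 4364 to 6425 without 1 library. The split of higher and lower genes was 959 and 626 for LN229-R against LN229, and 1187 and 471 with equal totals. It was 1289 and 939 with STM2457 in U87 MG, and 1662 and 760 with equal totals. No scaling moved the median of all genes by as much as 0.1.

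Among the members, the log2 difference of IL20RB ran from 0.60 to 1.09 without 1 library in U87-R against U87 MG and from -0.057 to 0.51 in LN229-R against LN229, where that of IL22RA1 ran from 0.69 to 0.99. With the LN229 names exchanged the differences were 0.40 for IL24, -0.27 for IL20RB and -0.82 for IL22RA1. With a pseudocount of 5, IL24 differed by 4.04 in LN229 and 2.12 in LN229-R with STM2457. The replicate block ended or made no call of a member, with an adjusted p of 0.0683 for IL22RA1 in LN229-R against LN229. In the U87-R against U87 MG, U87 MG STM2457 and LN229 STM2457 tables the like-numbered libraries correlated at 0.02, 0.04 and 0.07 at the lowest, so the numbers were not taken to pair them. The cause of these changes was not tested. No value could be had with a mean of at least 50 for members below it in a table, among them IL24 in LN229-R. Values near 0 limit IL24 in LN229 controls.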
